A study of Mus musculus with 6 samples.

Results

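Chemokine transcripts of the mouse myoblast line C2C12 were described in RNA sequencing libraries taken before and after differentiation. The 10 genes were Ccl2, Ccl5, Ccl7, Ccl20, Cxcl1, Cxcl2, Cxcl5, Cxcl10, Cxcl12 and Cxcl14, taken by symbol from the 43074 genes of the deposited count table, and each symbol was found. C2C12 cells, labelled wild type, proliferate as single cells in medium with fetal bovine serum and fuse into myotubes in medium with horse serum. One group was harvested untreated at day 0. The other groups spent 4 days in horse serum medium, one with the solvent DMSO and one with 1 mM 4-phenylbutyric acid (4-PBA), which inhibits histone deacetylases and can help proteins fold. Each group had 2 libraries, and all 6 carried the same batch number. C2C12 is a single established line. Whether the libraries of a group came from separate cultures is not given, so the p-values measure the spread between these libraries, which may be technical.

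Chemokines are small secreted proteins that guide cell movement through G protein-coupled receptors, and they are named for the spacing of conserved cysteines (CC, CXC, CX3C). CCL2 and CCL7 attract monocytes through CCR2, CCL5 attracts T cells and monocytes, and CCL20 acts through CCR6. CXCL1, CXCL2 and CXCL5 attract neutrophils through CXCR2, whereas CXCL10 is an interferon-induced ligand of CXCR3. CXCL12 binds CXCR4, which signals in migrating muscle precursors, and ACKR3, which takes the ligand up and degrades it, while CXCL14 is a less well characterised member made in several epithelia and in muscle. Many CC and CXC chemokines are transcriptional targets of NF-κB, the factor named in the title of the study.

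Sequences upstream of the start sites are shown for 4 of these genes because they set Cxcl2, which had no counts, beside its neighbour Cxcl1, which had counts in every library, and the interferon-type Cxcl10 beside Cxcl14. RefSeq promoters of GRCm38.p6 matched 6 of the 10 symbols (Ccl20, Cxcl1, Cxcl2, Cxcl10, Cxcl12 and Cxcl14). Each line gives the 250 bases before the annotated start, read 5′ to 3′ on the strand of the gene, with matches to an NF-κB-type or an interferon-response-type motif in capitals. The NF-κB-type letters were GGGA, any 2 bases, T, any 1 base and CC, and the interferon-type letters were GAAA, any 2 bases and GAAA. Both strands were searched, and the letters were chosen with these promoters in view. The windows are chr5:90890995-90891244 (+) for Cxcl1, chr5:90903649-90903898 (+) for Cxcl2, chr5:92348890-92349139 (-) for Cxcl10 and chr13:56296552-56296801 (-) for Cxcl14.
Cxcl1: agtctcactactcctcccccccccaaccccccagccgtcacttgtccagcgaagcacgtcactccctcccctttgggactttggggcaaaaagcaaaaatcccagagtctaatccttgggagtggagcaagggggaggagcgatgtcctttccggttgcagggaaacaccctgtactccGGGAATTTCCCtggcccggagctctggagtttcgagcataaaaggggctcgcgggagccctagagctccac
Cxcl2: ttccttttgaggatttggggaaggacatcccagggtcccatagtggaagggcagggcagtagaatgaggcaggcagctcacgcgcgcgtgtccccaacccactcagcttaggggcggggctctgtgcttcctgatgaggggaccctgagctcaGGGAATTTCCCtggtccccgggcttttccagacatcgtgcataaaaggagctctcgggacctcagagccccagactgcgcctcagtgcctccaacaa
Cxcl10: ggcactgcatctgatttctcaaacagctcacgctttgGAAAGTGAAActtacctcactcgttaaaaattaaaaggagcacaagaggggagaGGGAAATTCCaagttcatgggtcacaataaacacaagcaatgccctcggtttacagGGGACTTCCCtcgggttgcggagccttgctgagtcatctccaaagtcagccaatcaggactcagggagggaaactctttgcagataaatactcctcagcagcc
Cxcl14: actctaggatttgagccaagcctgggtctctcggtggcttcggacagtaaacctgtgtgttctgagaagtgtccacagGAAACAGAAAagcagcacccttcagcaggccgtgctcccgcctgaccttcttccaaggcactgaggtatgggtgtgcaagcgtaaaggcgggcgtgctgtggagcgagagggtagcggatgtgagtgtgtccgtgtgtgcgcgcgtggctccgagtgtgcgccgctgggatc

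The Cxcl1 and Cxcl2 windows both held GGGAATTTCC, whose first base lies at position -71 from the start of Cxcl1 and at -97 from that of Cxcl2, and which overlaps a match on the other strand. The Cxcl10 window held GGGAAATTCC, GGGACTTCCC (a match on both strands) and, further upstream, GAAAGTGAAA. The Cxcl14 window held the interferon-type letters only, as GAAACAGAAA, and neither motif occurred in the Ccl20 or Cxcl12 window. Of all 32851 promoter windows of this length, 3.33% held the NF-κB-type letters and 2.98% the interferon-type letters. CG dinucleotides numbered 16 for Cxcl14, 14 for Cxcl12, 10 for Cxcl1, 9 for Cxcl2, 5 for Cxcl10 and 2 for Ccl20, against a median of 6 over all windows. These matches describe the letters and do not show that a factor was bound.

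Total counts ranged from 47908926 to 74697397 per library. The muscle markers Myod1, Myog, Mymk, Myh3, Ckm and Des were detected in each group. All 6 were called higher at day 4 than at day 0 with either treatment, where 33.8% (DMSO) and 33.2% (4-PBA) of all tested genes were. Of 10 leukocyte markers, each library had 3 or 4 at 0 counts, and their summed level was 6.45 to 6.85 CPM (counts relative to library size after TMM scaling) at day 0, 2.41 to 3.45 CPM with DMSO and 1.98 to 3.35 CPM with 4-PBA. Cd68, a lysosomal protein that is not restricted to macrophages, made up 64.2% to 82.3% of that sum, while the pan-leukocyte gene Ptprc had at most 3 counts in a library. The 5 endothelial markers summed to 1.40 to 2.65 CPM. Their part in the chemokine values was not tested.

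Of the 10 chemokines, 8 passed the filter on low counts and were tested. Ccl20 and Cxcl2 had 0 counts in all 6 libraries. A count of 0 allows up to 3 counts, or 0.0404 to 0.0617 CPM depending on the library, so expression below that was not detectable at this depth. That limit covers counting error only. Stretches of 50 bases shared with another gene made up 5.84% of the Cxcl2 transcripts (shared with Cxcl3, itself at 0 counts), 3.59% of those of Cxcl10 (shared with Art3 on the opposite strand) and 0.693% of those of Cxcl5. The other 7 members shared none, and Cxcl10 is the only member whose exons overlap those of another gene in GENCODE M21, over 133 bases, so its values are uncertain to that extent.

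**Figure D1:**
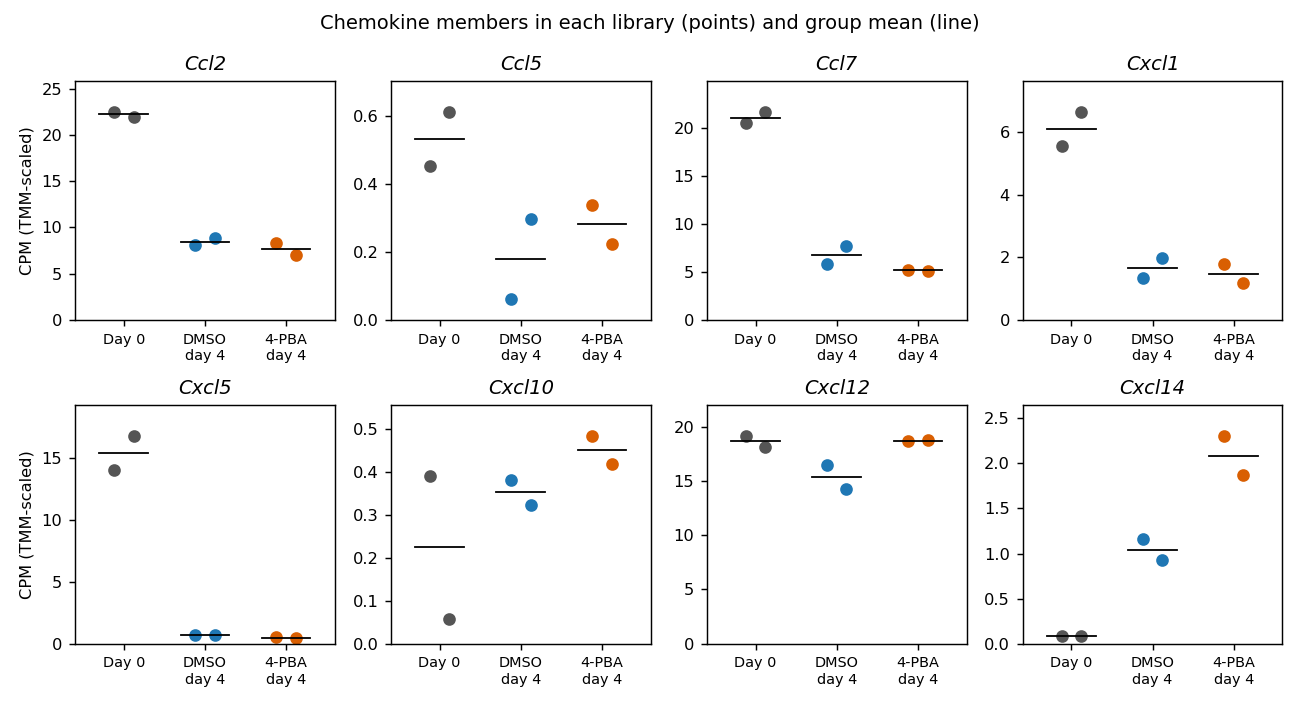
CPM (TMM-scaled, vertical axis from 0) of the 8 tested chemokines in each of the 6 libraries, as points, with the mean of the 2 libraries of a group as a line. Ccl2, Ccl7, Cxcl1 and Cxcl5 drop between day 0 and both day 4 groups, Cxcl14 climbs from 0.0839 CPM to 1.04 CPM with DMSO and 2.09 CPM with 4-PBA, and Cxcl12 stays within 14.3 to 19.1 CPM.

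Levels can be compared between genes only per transcript length, for which CPM was divided by the union of each gene's exons in kilobases. At day 0 the order was Ccl7 (26.3 ± 1.00 CPM per kilobase, SD, n = 2), Ccl2 (19.5 ± 0.300), Cxcl5 (8.26 ± 1.05), Cxcl1 (3.24 ± 0.411), Cxcl12 (2.28 ± 0.0879), Ccl5 (0.555 ± 0.118), Cxcl10 (0.0995 ± 0.105) and Cxcl14 (0.0459 ± 0.00122). The libraries of neighbours in that order did not overlap, except for Cxcl10 and Cxcl14. Among 16469 tested genes with a known length, Ccl7 stood at percentile 88.1 and Ccl2 at 83.5 at day 0, and at 67.0 and 64.2 with DMSO. Divided by the longest coding transcript in place of the exon union, Ccl2 (27.3 CPM per kilobase) stood above Ccl7 (26.3) at day 0. At day 4 with DMSO, Ccl7 (8.44 ± 1.63) and Ccl2 (7.44 ± 0.517) overlapped, followed by Cxcl12 (1.88 ± 0.190), Cxcl1 (0.888 ± 0.239), Cxcl14 (0.571 ± 0.0878) and Cxcl5 (0.381 ± 0.0269). With 4-PBA, Ccl2 (6.78 ± 0.802) and Ccl7 (6.44 ± 0.129) also overlapped, followed by Cxcl12 (2.29 ± 0.00665), Cxcl14 (1.14 ± 0.168) and Cxcl1 (0.790 ± 0.219). By the longest coding transcript, Cxcl1 (1.55) stood above Cxcl14 (1.14) there, so the order of these neighbours depends on the length used.

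**Figure D2:**
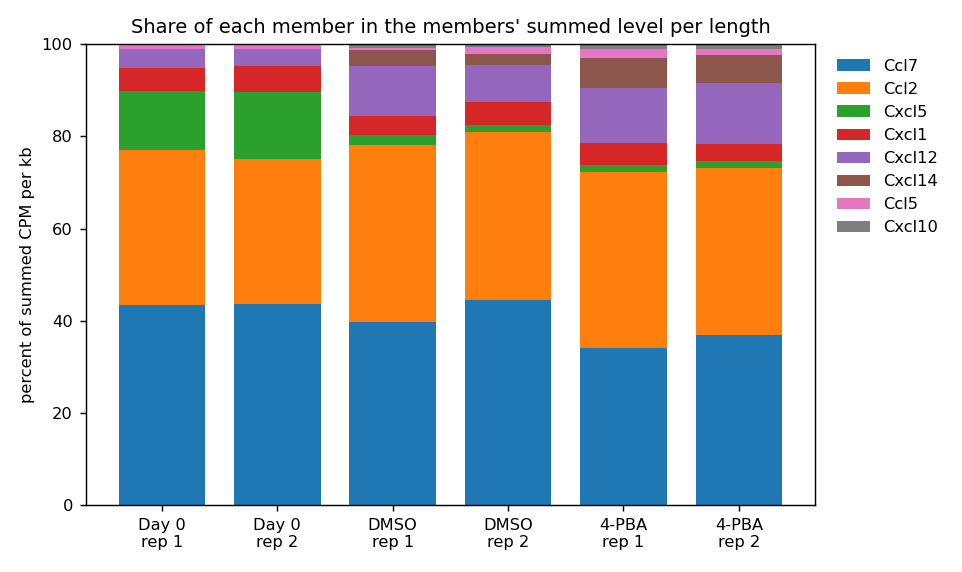
Share of each chemokine (colours) in the summed CPM per kilobase of the members, in percent, with 1 bar for each of the 6 libraries. Cxcl5 takes 12.8% and 14.6% at day 0 and at most 2.18% in each day 4 library, while Cxcl12 goes from 3.59% to 3.98% at day 0 to 8.12% to 13.3% at day 4.

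The makeup of the chemokine transcripts was described next. The share of Cxcl5 in the summed level per kilobase was 12.8% and 14.6% at day 0, 2.18% and 1.68% in the DMSO libraries and 1.44% and 1.36% in the 4-PBA libraries. Cxcl14 took 0.0766% and 0.0757% before differentiation, 3.45% and 2.36% in the DMSO libraries and 6.56% and 5.96% in the 4-PBA libraries. Ccl7 and Ccl2 had the highest shares in every library. Without division by length, and so on another scale than the shares, the summed CPM of the members was 82.6 and 85.9 at day 0. It was 34.1 and 35.1 in the DMSO libraries and 37.7 and 35.0 in the 4-PBA libraries. With a smaller sum, a share can rise without a rise in level. The level of Cxcl12 per kilobase was 2.28 at day 0, 1.88 with DMSO and 2.29 with 4-PBA. These shares come from the same counts as the tests below and were not tested themselves.

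Differentiation with DMSO was compared with day 0 first. Most of the inflammatory attractants fell and Cxcl14 rose. edgeR called 7 of the 8 tested chemokines, 1 higher and 6 lower, where 66.3% of all 17433 tested genes were called, 33.8% higher and 32.6% lower. The median log2 fold change was -1.46 over the 8 chemokines and 0.02 over all tested genes. The groups' libraries did not overlap for 7 of the 8, against 81.9% of all tested genes. Bulk libraries cannot tell fewer cells that express a gene from less RNA per cell. In the same comparison 4 of the 10 leukocyte markers were tested. Of these, 2 were called, both lower, where 66.3% of all tested genes were called. Cd68 had a log2 fold change of -1.51 (SE 0.205, adjusted p 4.51e-07). The macrophage receptor gene Csf1r (-1.64, SE 0.628, adjusted p 0.0212) had few counts, 40 at day 0 and 15 with DMSO over both libraries. Exons of Csf1r overlap those of Hmgxb3 on the opposite strand over 873 bases, so its values are uncertain. The macrophage marker Adgre1 (0.64) and Fcer1g (-0.28, adjusted p 0.551) were not called. Of the endothelial markers, 4 of 5 were tested, and Kdr (at most 3 counts in a DMSO library, adjusted p 8.0e-04) and Pecam1 (-1.25, adjusted p 0.0486) fell while Tek rose (1.68, adjusted p 1.42e-06). The part of these genes' source cells in the chemokine changes was not tested.

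Among the monocyte attractants, Ccl2 had 22.4 and 22.0 CPM at day 0, 8.05 and 8.88 in the DMSO libraries and 8.36 and 7.07 in the 4-PBA libraries. Both day 4 groups lay below both day 0 libraries, and they overlapped each other. Its log2 fold change against day 0 was -1.39 (SE 0.0889, adjusted p 5.59e-16) with DMSO and -1.52 (SE 0.0908, adjusted p 7.63e-17) with 4-PBA. Ccl7, the gene next to it on chromosome 11, had 20.5 and 21.7 CPM before differentiation, 5.83 and 7.68 in the DMSO libraries, and 5.23 and 5.09 in the 4-PBA libraries. All 3 groups were apart. Ccl7 fell by 1.64 (SE 0.101, adjusted p 7.14e-16) with DMSO and by 2.03 (SE 0.106, adjusted p 7.46e-18) with 4-PBA on the log2 scale.

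Ccl5, an attractant of T cells and monocytes, was scarce, with 22 and 43 counts at day 0, 4 and 22 in the DMSO libraries, and 21 and 14 in the 4-PBA libraries. The DMSO libraries lay far apart in CPM (0.0634 and 0.297), and the 4-PBA libraries lay on either side of the higher one. Its log2 fold change was -1.53 (SE 0.557, adjusted p 0.0162) with DMSO and -0.93 (SE 0.537, adjusted p 0.130) with 4-PBA. The DMSO call rested on single libraries, since the value was -0.85 (adjusted p 0.218) without DMSO replicate 1, -3.04 (adjusted p 0.00102) without DMSO replicate 2 and -1.28 (adjusted p 0.138) without day 0 replicate 2.

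Both detected neutrophil attractants fell. Cxcl5 stood at 14.0 and 16.8 CPM at day 0, at 0.745 and 0.674 in the DMSO libraries and at 0.515 and 0.435 in the 4-PBA libraries. Every day 4 library was below both day 0 libraries. The fall was 21.8-fold with DMSO (-4.44 on the log2 scale, with SE 0.162, adjusted p 4.39e-23) and 32.4-fold with 4-PBA (-5.02 with SE 0.176, adjusted p 1.48e-23). Cxcl1 had 5.53 and 6.62 CPM before differentiation, 1.35 and 1.98 in the DMSO libraries, and 1.77 and 1.19 in the 4-PBA libraries, so the day 4 groups overlapped below day 0. It fell 3.64-fold with DMSO (-1.86 on the log2 scale, with SE 0.192, adjusted p 4.36e-10) and 4.12-fold with 4-PBA (-2.04 with SE 0.198, adjusted p 1.15e-10). Cxcl2, whose window shares GGGAATTTCC with that of Cxcl1, had no counts.

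Cxcl10, the interferon-induced ligand, had 19 and 4 counts at day 0, 24 in each DMSO library, and 30 and 26 in the 4-PBA libraries. The day 0 libraries (0.391 and 0.0570 CPM) lay on either side of the DMSO libraries (0.380 and 0.324 CPM). Its log2 fold change was 0.76 (SE 0.603, adjusted p 0.275) with DMSO and 1.12 (SE 0.594, adjusted p 0.0983) with 4-PBA, and neither was called. Without day 0 replicate 1 both were called, at 2.58 (adjusted p 0.0071) and 2.94 (adjusted p 0.00216), while without day 0 replicate 2 the DMSO value was -0.15.

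Cxcl12, the ligand of CXCR4 and ACKR3, had a narrow range over the 6 libraries. It stood at 19.1 and 18.1 CPM at day 0, at 16.5 and 14.3 in the DMSO libraries and at 18.7 in each 4-PBA library. Both DMSO libraries were the lowest of the 6, and the 4-PBA libraries lay between those of day 0. With DMSO it fell by 0.28 on the log2 scale (SE 0.0778, adjusted p 0.00219), but the value was -0.18 (adjusted p 0.0830) without DMSO replicate 2. With 4-PBA it did not pass the test against day 0 (log2 fold change 0.0072, SE 0.0771, adjusted p 0.943).

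Cxcl14 was the member that rose. It had 4 and 6 counts at day 0 (0.0823 and 0.0855 CPM), 73 and 69 in the DMSO libraries (1.16 and 0.930 CPM), and 143 and 116 in the 4-PBA libraries (2.30 and 1.87 CPM). No group overlapped another. The rise from day 0 was 12.1-fold with DMSO (3.60 on the log2 scale, with SE 0.418, adjusted p 2.06e-09) and 24.2-fold with 4-PBA (4.60 with SE 0.390, adjusted p 1.07e-12). Both folds rest on the few day 0 counts, and Cxcl14 passed the filter through its day 4 counts alone.

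With 4-PBA against day 0, edgeR called 5 of the 8 chemokines, 1 higher and 4 lower, where 65.6% of all tested genes were called, 33.2% higher and 32.4% lower. Ccl2, Ccl7, Cxcl1 and Cxcl5 fell and Cxcl14 rose. The median log2 fold change was -1.23 over the members and 0.02 over all tested genes. The libraries did not overlap for 7 of the 8, against 81.8% of all tested genes. Cd68 fell here too (log2 fold change -1.55, SE 0.208, adjusted p 4.09e-07), as the 1 leukocyte marker called, Kdr fell (adjusted p 0.00237) and Tek rose (1.19, adjusted p 3.61e-04), and their part was not tested. This comparison shares its day 0 libraries with the one of DMSO.

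**Figure D3:**
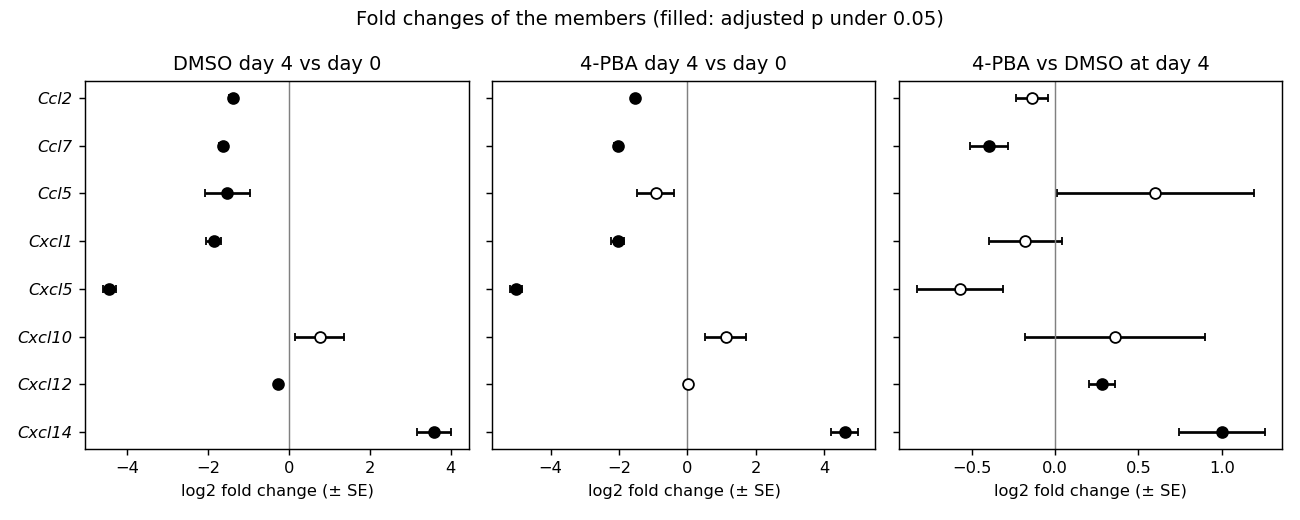
Log2 fold change of each tested chemokine (horizontal axis, with a different range in each panel) in the 3 comparisons, with bars of 1 standard error and filled points where the adjusted p was under 0.05. Changes against day 0 reach -5.02 for Cxcl5 and 4.60 for Cxcl14, while those between 4-PBA and DMSO lie between -0.57 and 1.00.

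The 4-PBA libraries were then set directly against the DMSO libraries of the same day. Cxcl14 and Cxcl12 were higher with 4-PBA and Ccl7 was lower, so 3 of the 8 chemokines were called, 2 higher and 1 lower, where 4.9% of all tested genes were called, 2.13% higher and 2.78% lower. The median log2 fold change was 0.07 over the members and 0.00 over all tested genes. The libraries did not overlap for 5 of the 8, against 45.5% of all tested genes. The muscle markers Mymk (log2 fold change -0.17) and Des (-0.11) were also called lower with 4-PBA, and the other 4 were not called. Cxcl14 was higher at 2.09 ± 0.308 than at 1.04 ± 0.160 CPM (SD of 2 libraries), a log2 fold change of 1.00 with SE 0.257 and an edgeR adjusted p of 0.0150. Cxcl12 was 1.22-fold higher (18.7 ± 0.0543 against 15.4 ± 1.55 CPM), at a log2 fold change of 0.28 with SE 0.0773 and an adjusted p of 0.0242. Ccl7 was 1.32-fold lower (5.16 ± 0.103 against 6.76 ± 1.31 CPM), at -0.40 with SE 0.114 and an adjusted p of 0.0355.

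Leaving out a day 4 library leaves only 1 in its group. Each of these 3 calls kept its sign in every fit without 1 library but was lost in some of them. None held without DMSO replicate 2, where the log2 fold change was 0.85 for Cxcl14, 0.18 for Cxcl12 and -0.17 for Ccl7, and none held without 4-PBA replicate 1 or 2. Without either day 0 library, Ccl7 was no longer called. Leaving out a day 0 library changes the filter, the scaling, the shared spread and the adjustment, but not the libraries compared. The DESeq2 Wald test called neither Cxcl12 (adjusted p 0.0520) nor Ccl7 (0.0703) and gave no adjusted p for Cxcl14, so it called 0 of the members. Counting these fits, Ccl7 lost its call under 9 of the 15 alternative settings tried. The other members did not pass the test between 4-PBA and DMSO: Cxcl5 had a log2 fold change of -0.57 (SE 0.259, adjusted p 0.247), Ccl2 of -0.14 (SE 0.0964, adjusted p 0.533) and Cxcl1 of -0.18 (SE 0.218, adjusted p 0.773). Ccl5 (0.60, SE 0.591, adjusted p 0.697) and Cxcl10 (0.36, SE 0.542, adjusted p 0.826), both with few counts, did not pass either.

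**Figure D4:**
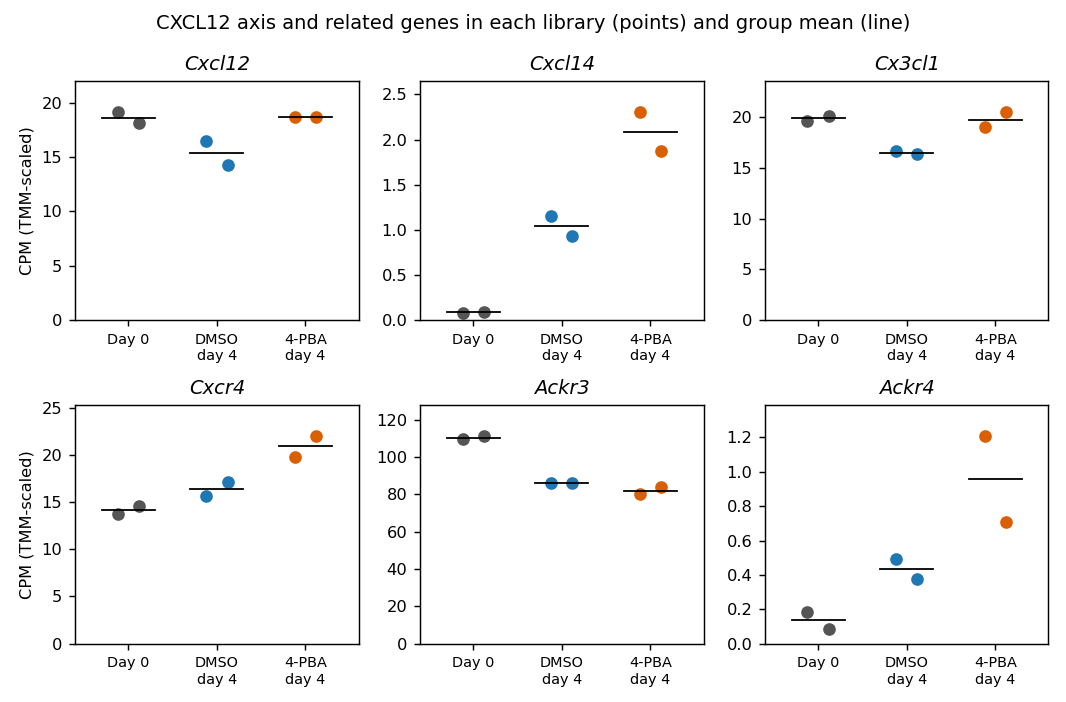
CPM (TMM-scaled, vertical axis from 0) of Cxcl12, Cxcl14 and Cx3cl1 and of the receptor genes Cxcr4, Ackr3 and Ackr4 in each library, as points, with the group mean as a line. Cxcr4 rises from 14.2 to 16.4 CPM with DMSO and 20.9 CPM with 4-PBA, and Cxcl12 and Cx3cl1 are lowest with DMSO.

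Of 23 chemokine receptor genes, 5 passed the filter, and the receptors of the inflammatory members were not among them. The other 18 had at most 16 counts in a library, and 3 had none in any. Cxcr4, the receptor of CXCL12, rose from 13.7 and 14.6 CPM at day 0 to 15.6 and 17.1 in the DMSO libraries and 19.8 and 22.0 in the 4-PBA libraries, with no overlap between groups. Its log2 fold change was 0.21 (SE 0.0797, adjusted p 0.0235) with DMSO against day 0, 0.56 (SE 0.0789, adjusted p 1.32e-07) with 4-PBA against day 0 and 0.35 (SE 0.0769, adjusted p 0.00388) between 4-PBA and DMSO. The last of these was 0.27 (adjusted p 0.167) without 4-PBA replicate 2, and the first was 0.13 (adjusted p 0.220) without DMSO replicate 2 and 0.16 (adjusted p 0.172) without day 0 replicate 1.

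Ackr3, the scavenger of CXCL12, fell from 110.3 ± 1.27 CPM at day 0 to 86.0 ± 0.338 CPM with DMSO and 81.9 ± 2.61 CPM with 4-PBA (log2 fold change -0.36, SE 0.0384, and -0.43, SE 0.0386). Ackr4, which scavenges CC chemokines such as CCL19 and CCL21, rose at low counts, with log2 fold changes of 1.74 (adjusted p 0.00418) and 2.88 (adjusted p 3.73e-06) against day 0. Its difference between 4-PBA and DMSO was 1.14 (SE 0.402, adjusted p 0.0974). The DMSO value of Ackr4 was 1.22 (adjusted p 0.0888) without day 0 replicate 2. Exons of Ackr4 overlap those of Acad11 on the opposite strand, so its values are uncertain. Cxcr6 fell by 1.06 (SE 0.274) and 1.22 (SE 0.281), and Cx3cr1 passed the test in no comparison (adjusted p 0.185, 0.916 and 0.430).

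Among 28 other chemokine genes, 9 passed the filter, 10 had 0 counts in every library and the remaining 9 had at most 11 counts. Cx3cl1, the membrane-bound fractalkine, was also lowest with DMSO, at 19.7 and 20.1 CPM at day 0, 16.7 and 16.4 in the DMSO libraries, and 19.0 and 20.5 in the 4-PBA libraries. It fell with DMSO by 0.27 on the log2 scale (SE 0.0724, adjusted p 0.00132) and was higher with 4-PBA than with DMSO (0.26, SE 0.0721, adjusted p 0.0269), a call that was lost without DMSO replicate 2 (adjusted p 0.0848) and without 4-PBA replicate 1 (0.0626) or 2 (0.331). Cxcl13, the B cell attractant, rose from 8 and 4 counts to 56 and 60 with DMSO (log2 fold change 3.02, SE 0.494) and to 36 and 53 with 4-PBA (2.78, SE 0.504). These values for Cxcl13 rest on few day 0 counts: they were 3.85 and 3.61 without day 0 replicate 1, and 2.35 and 2.11 without day 0 replicate 2. Ppbp, which lies between Cxcl5 and Pf4 on chromosome 5, fell from 27 and 21 counts to 4 and 2 with DMSO and to 6 and 0 with 4-PBA (adjusted p 9.24e-04 and 0.00147). For Ppbp, the log2 fold change of -3.20 with DMSO ran from -3.87 to -2.69 when 1 library was left out. That of -3.07 with 4-PBA ran from -7.74 (without 4-PBA replicate 1) to -2.10 (without 4-PBA replicate 2). Ccl25, whose exons overlap those of Elavl1 on the opposite strand, fell with 4-PBA against day 0 (-0.28, SE 0.0835, adjusted p 0.00416), a call lost without 4-PBA replicate 1 (-0.22, adjusted p 0.0725). Ccl17 and Cxcl16 passed the test in no comparison.

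Position on the chromosome was compared with the values, using the gene order of RefSeq GRCm38.p6. Ccl2, Ccl7, Ccl11, Ccl12, Ccl8 and Ccl1 follow each other on chromosome 11 with no other protein-coding gene between them. Ccl8 fell with Ccl2 and Ccl7 (log2 fold change -1.20, SE 0.340, with DMSO and -1.53, SE 0.354, with 4-PBA), although the DMSO call of Ccl8 was lost without DMSO replicate 2 (-0.89, adjusted p 0.0534). Ccl11 did not pass the test (adjusted p 0.765 and 0.327), Ccl12 had 0 counts and Ccl1 at most 11. On chromosome 5 the run is Cxcl5, Ppbp, Pf4, Cxcl3, Cxcl15, Cxcl1 and Cxcl2. Its 3 genes with enough counts, Cxcl5, Ppbp and Cxcl1, fell, and the other 4 had 0 counts in every library. Ppbp passed the filter through its day 0 counts alone. A gene kept that way can hardly appear as anything but lower at day 4, so its fall adds no separate evidence. Ccl5 is followed by Ccl9, which rose with DMSO (0.51, SE 0.196, adjusted p 0.0214), a call lost without DMSO replicate 2 (0.39) and without day 0 replicate 2 (0.27).

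The genes that act upstream of chemokines were listed beside them. Of 11 NF-κB subunits and feedback inhibitors, 8 were called with DMSO against day 0, 6 higher and 2 lower, where 66.3% of all tested genes were called, 33.8% higher and 32.6% lower, so the share called is near that of all genes. Those that rose included Relb (log2 fold change 1.33, SE 0.0679), Nfkbie (1.17, SE 0.111), Nfkb2 (0.48, SE 0.0367) and Nfkbia (0.22, SE 0.0714, lost without day 0 replicate 1 at an adjusted p of 0.111). The 2 that fell were Nfkb1 (-0.19, SE 0.0338, adjusted p 5.98e-06) and Tnfaip3 (-0.16, SE 0.0496, adjusted p 0.00646). The median log2 fold change of the 11 was 0.22, against 0.02 over all tested genes. Between 4-PBA and DMSO, 3 of the 11 were called, all lower, where 4.9% of all tested genes were called, 2.78% lower. They were Nfkb2 (-0.20, SE 0.0362), Relb (-0.26, SE 0.0629) and Tnfaip3 (-0.28, SE 0.0503), an enzyme that limits NF-κB signalling. Exons of Nfkb2 overlap those of Psd and AC114539.1 on the opposite strand, so its values are uncertain. Nfkb2 stayed called without any 1 library, whereas Tnfaip3 was lost without 4-PBA replicate 2 (adjusted p 0.0735) and Relb without DMSO replicate 2 (0.0796), 4-PBA replicate 1 (0.170) or 4-PBA replicate 2 (0.0639).

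Of 14 interferon response genes, 9 were called higher and none lower with DMSO, and 9 higher and none lower with 4-PBA. Of all tested genes, 33.8% were higher and 32.6% lower with DMSO, and 33.2% and 32.4% with 4-PBA. The median log2 fold change of the 14 was 0.82 with DMSO and 0.64 with 4-PBA, against 0.02 over all genes in both. Gbp2, a guanylate-binding protein, rose by a log2 fold change of 2.33 (SE 0.177) with DMSO and 2.27 (SE 0.178) with 4-PBA, and Oasl2 by 1.61 (SE 0.153) and 1.21 (SE 0.158). Irf7 rose by 1.28 (SE 0.194) with DMSO and 1.04 (SE 0.198) with 4-PBA, and Irf1 by 0.38 (SE 0.0571) and 0.41 (SE 0.0574). None of the 14 was called between 4-PBA and DMSO by edgeR or DESeq2, where edgeR called 4.9% of all tested genes. An unadjusted edgeR p under 0.05 was found for 2 of the 14, against 2908 of all 17433 tested genes.

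Among 18 genes for inducing cytokines and their receptors, 15 were tested, of which 7 were higher and 3 lower with DMSO against day 0. These 10 calls are near the share of all tested genes called, which was 66.3%. Il6 rose from 0.499 ± 0.241 to 2.12 ± 0.0571 CPM (log2 fold change 2.02, SE 0.270), a value that ran from 1.65 to 2.68 when 1 library was left out. The interferon-gamma receptor genes Ifngr1 (0.77, SE 0.0498) and Ifngr2 (0.58, SE 0.0542) rose. Il1rap, the co-receptor of interleukin 1, fell by 0.91 (SE 0.0725) and Tnfrsf1a by 0.27 (SE 0.0379). Exons of Il1rap overlap those of Gm20319 on the opposite strand, so its values are uncertain. Tnf stood at 0.231 ± 0.0358 CPM at day 0, 0.216 ± 0.0371 CPM with DMSO and 0.0966 CPM in both 4-PBA libraries and passed the test in no comparison, nor did Il1b. Between 4-PBA and DMSO, Il17ra alone of the 15 was called (-0.15, SE 0.0467, adjusted p 0.0495), where 4.9% of all tested genes were called. It was no longer called with DESeq2 size factors (adjusted p 0.0547), limma-voom (0.0638) or the DESeq2 Wald test (0.104). Il17ra also lost its call without any library other than DMSO replicate 2 (adjusted p 0.0677 to 0.332).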

How the data were processed

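The deposited values are raw counts per gene symbol, 1 column per library, with 0 columns of any other sample. Per the labels' protocols, RNA was DNase-treated and libraries were prepared with a directional kit. The genome build is GRCm39 per the submitters' processing notes. The aligner, counter, annotation and strand setting are not given in the sources used here. In each library 2 counts were more frequent than 1, and 55.1% to 58.9% of values from 1 to 12 were even (49.6% to 50.9% above 100), so low counts may carry more error than their size shows.

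edgeR 4.0.16 (R 4.3.3) was used with filterByExpr (17433 genes kept), TMM, group means over all 6 libraries and robust glmQLFit. Cxcl13, Cxcl14 and Ackr4 passed that filter through day 4 counts, and Ppbp and Kdr through day 0 counts. Such genes could hardly show a change against day 0 in the other direction. P-values of the quasi-likelihood test were adjusted by Benjamini-Hochberg over every tested gene, and a gene was called when the result was under 0.05. SE is the absolute log2 fold change over the square root of the F statistic. No relabelling of 2 against 2 libraries can reach 0.05; the p-values borrow spread from all genes. Named genes were the 10 chemokines, the other chemokines and receptors that passed the filter, a fixed set of upstream genes, and the 3 smallest adjusted p-values of each upstream list in each comparison; 1 gene that this rule names is not reported here. Muscle, leukocyte and endothelial markers were fixed as lists, and those named singly were chosen after their values were seen. Members, lists and tests were chosen with earlier results of these data known. Alternatives were DESeq2 1.42.0, limma-voom (limma 3.58.1), other scalings and filters, fits of 4 libraries, a replicate block, a threshold of 0.01 and leaving out each library. Division by the longest coding transcript was added after seeing the data. Lengths and overlaps came from GENCODE M21, which is of another build and was used by symbol. The edgeR script was tested on simulated data. Figures used Python 3.11.15 and matplotlib 3.10.9.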

Additional observations from a re-analysis of the deposited data

Results flagged for a closer look

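By the edgeR test of 4-PBA against DMSO, the change from day 0 to day 4 differed for 9 of the named genes. Of all tested genes, 4.9% were called in that comparison. The groups' libraries did not overlap for any of the 9, nor for 45.5% of all tested genes. Nfkb2 alone of the 9 kept its call under every alternative. The difference in log2 fold change was 1.00 for Cxcl14, 0.28 for Cxcl12, 0.26 for Cx3cl1 and 0.35 for Cxcr4, which were higher with 4-PBA. It was -0.40 for Ccl7, -0.20 for Nfkb2, -0.26 for Relb, -0.28 for Tnfaip3 and -0.15 for Il17ra, which were lower. Groups of 2 libraries are too small for a check on single outlying samples.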

How the results depend on the processing

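Of 80 calls in named genes and comparisons, 1137 of 1199 values under the alternatives stayed called in the same direction, 62 were no longer called and none changed sign. Among 64 results that were not called, 34 of 943 values changed sign and 18 became called. Where a result changed, the cause was not tested. Low counts limit Ccl5, Cxcl10, Cxcl13, Ppbp and the day 0 level of Cxcl14.

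Between 4-PBA and DMSO, the 3 called members became 0 with the DESeq2 Wald test and at a threshold of 0.01, and 0 to 3 when 1 library was left out. At 0.01 the 855 called genes became 424, and the 1 other chemokine and the 1 inducing cytokine gene became 0. The inducing cytokine count was also 0 with DESeq2 size factors, library size only, the DESeq2 Wald test, limma-voom and the 4 libraries compared. Leaving out 1 library gave 295 to 1194 genes, 0 to 1 other chemokines, 0 to 1 receptors, 1 to 3 NF-κB genes, 0 to 2 interferon genes and 0 to 1 inducing cytokine genes. It gave 3 to 6 other chemokines with DMSO against day 0 (5 with all libraries) and 5 to 9 interferon genes with 4-PBA against day 0 (9 with all libraries).

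Nothing in the labels pairs the libraries by replicate number. The correlations of replicate differences between groups were -0.0279, -0.00306 and -0.0116. They show no large shared replicate effect but cannot tell whether the libraries were paired by design. With the replicate block, 768 genes and 3 members were called between 4-PBA and DMSO, the inducing cytokine count was 0, and Ccl17 with DMSO changed sign to 0.0015.

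Log2 fold changes that changed sign under other settings were those of Cxcl12 with 4-PBA against day 0 (-0.011 with library size only), Ccl17 with DMSO (0.095 with limma-voom), Cx3cr1 with 4-PBA (0.038 with limma-voom) and Ppbp between 4-PBA and DMSO (-0.73 with limma-voom). None of these was called. The following also changed sign when 1 library was left out. With DMSO against day 0 the ranges were -0.15 to 2.58 for Cxcl10, -0.20 to 0.85 for Ccl11, -0.55 to 1.05 for Ccl17, -0.014 to 0.64 for Cx3cr1, -0.29 to 0.081 for Tnf and -0.64 to 0.94 for Mx1. With 4-PBA against day 0 they were -0.031 to 0.041 for Cxcl12, -1.03 to 0.028 for Ccl11, -0.18 to 1.89 for Cxcl16, -0.066 to 0.048 for Cx3cl1 and -0.34 to 0.31 for Cx3cr1. Between 4-PBA and DMSO they were -0.074 to 2.12 for Ccl5, -0.49 to 0.14 for Cxcl1, -0.64 to 0.029 for Ccl8, -4.55 to 1.10 for Ppbp, -0.54 to 0.011 for Cxcl13, -0.96 to 0.033 for Cxcl16 and -0.44 to 0.15 for Cxcr6. In that comparison they were -0.15 to 0.022 for Gbp2, -0.027 to 0.13 for Il6, -0.13 to 0.20 for Tlr2 and -0.067 to 0.0094 for Ifngr1.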
